A study of Mus musculus with 10 samples.

Results

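The 42 genes described here are induced by type I or type II interferon in mouse cells, and they were taken by gene symbol from a table of 27179 genes. All 42 were found in it. The table comes from the femurs of 10 mice aged 3 or 4 weeks. The 5 mutants were Fgfr1+/N330I, with 1 copy of an allele of the fibroblast growth factor receptor gene Fgfr1 that changes an asparagine to an isoleucine, and the 5 controls were wild-type (WT) littermates. By label, 3 mutants and 3 controls were female, 2 of each genotype were male, and each mouse gave 1 library. No treatment is named in the labels, and the age is given for the series, not for each mouse. The RNA came from pulverized bone, so every cell type left in a femur can contribute to a value. The sources used here do not give the strain or the way the allele was made.

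Interferons bind receptors that activate JAK kinases and STAT proteins. Type I interferon acts through a complex holding STAT2 and IRF9 that binds interferon-stimulated response elements, and type II interferon acts through gamma-activated sites. The genes under their control encode RNA sensors, proteins that block viral replication, GTPases that attack the vacuoles of intracellular pathogens, and the machinery that loads peptides onto MHC class I molecules. Many of these genes keep a low level of expression in tissue without infection. In bone, type I interferon is known as a restraint on osteoclast formation.

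The members fell into 7 classes by role. Transcription and signalling held 3 genes, RNA and nucleic acid sensing 4, antiviral effectors 20, GTPases 7, antigen processing 3, and ADP-ribosylation 3. The last class held Usp18, a protease that removes ISG15 and restrains receptor signalling, and Cxcl10, a chemokine.

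Response elements could be read in the promoters of these genes, and 7 stretches are shown because they lie upstream of members whose values are given further on. RefSeq promoters of build GRCm38.p6 (the mm10 assembly) were matched for 33 of the 42 members. The core searched was GAAANNGAAA on both strands, in the 250 bases before the transcription start, with overlapping matches counted. Capitals mark every match, and a match on the other strand reads as its reverse complement. Each stretch is printed 5′ to 3′ on the strand of the gene.
Irgm2, chr11:58214893-58214942, plus strand: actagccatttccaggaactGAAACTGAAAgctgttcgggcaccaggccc
Isg15, chr4:156200855-156200904, minus strand: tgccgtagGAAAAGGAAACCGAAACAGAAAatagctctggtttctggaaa
Gbp3, chr3:142559985-142560034, plus strand: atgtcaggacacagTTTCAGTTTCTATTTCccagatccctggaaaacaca
Irgm1, chr11:48871421-48871464, minus strand: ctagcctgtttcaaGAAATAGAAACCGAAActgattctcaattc
Bst2, chr8:71537567-71537616, minus strand: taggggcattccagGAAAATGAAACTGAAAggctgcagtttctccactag
Cxcl10, chr5:92349073-92349122, minus strand: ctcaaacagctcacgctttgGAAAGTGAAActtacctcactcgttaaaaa
Stat2, chr10:128270256-128270305, plus strand: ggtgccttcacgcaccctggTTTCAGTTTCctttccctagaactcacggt

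Isg15 carried 3 overlapping cores, which began 78, 72 and 66 bases before the start. Gbp3, Irgm1 and Bst2 carried 2 overlapping cores each, and Irgm2, Cxcl10 and Stat2 carried 1. The core was found upstream of 16 of the 33 members (48.5%) and of 3.46% of 27025 genes with a RefSeq promoter. By promoter, it was in 16 of 37 of the members and in 2.98% of all 32851. By role, it lay upstream of 6 of 7 GTPases, all but Ifi47, and of 8 of 16 antiviral effectors with a promoter. It was found upstream of none of the 3 antigen processing genes and neither of the 2 sensors with a promoter. The gamma-activated site TTCNNNGAA was found upstream of 8 of the 33 members (24.2%) and of 8.13% of genes (7.02% of all promoters). These matches describe the letters of the windows and are not evidence of binding.

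Values were DESeq2-normalized counts, read counts scaled to a common library size. Some of the 10 libraries stood apart, and the sizes that follow depend on them. Female WT 3 had 28.8% of its normalized counts on Rn45s, the ribosomal RNA precursor, against 0.149% to 0.428% in the other libraries, and it held the highest value of 20 of the 42 members. Male WT 1 favoured short transcripts. Its log2 deviation over tested genes changed by -1.62 for each 10-fold step in exon length, against -0.48 to 0.45 in the other libraries, and it held the highest value of 12 members. Xist, the RNA that coats the inactive X, stood at 7972 normalized counts in the library labelled male mutant 2, where the Y-linked gene Ddx3y stood at 4. Among the remaining males by label, Xist ran from 14 to 48 and Ddx3y from 1558 to 1936. Female mutant 1 had a summed endothelial marker level of 3941, with the other mutants up to 31758. Estimated depth was 18.1 M to 30.6 M reads, lowest in female WT 3.

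Across both sexes, 39 of the 42 members had a lower mean log2 level in mutant than in WT femurs, with a median difference of -0.37 (log2 of the normalized count + 1, mutant minus WT) and a range from -0.97 to 0.22. The largest differences were those of Isg15, an ubiquitin-like modifier (-0.97), and Irf7, the factor that amplifies type I interferon production (-0.75). None of the 42 passed an adjusted p of 0.05 in the limma fit over 14362 genes, where 0 genes (0%) passed and 907 had an unadjusted p under 0.05, so no single member is called changed. The adjusted p of the members ran from 0.594 to 1.0. At an unadjusted p under 0.05, 14 members were lower and 0 higher, against 377 genes (2.62%) lower among all tested. Estimates below 0 made up 51.8% of all tested genes, whose median difference was -0.01. In 3 members, Ifih1, Oasl2 and Tap1, every mutant lay below every WT mouse, as did 48 (0.334%) of all tested genes. The members were chosen with results of these libraries known, so these counts describe the list and are not a test of it. In whole bone, fewer cells of a type and less RNA per cell cannot be told apart.

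**Figure D1:**
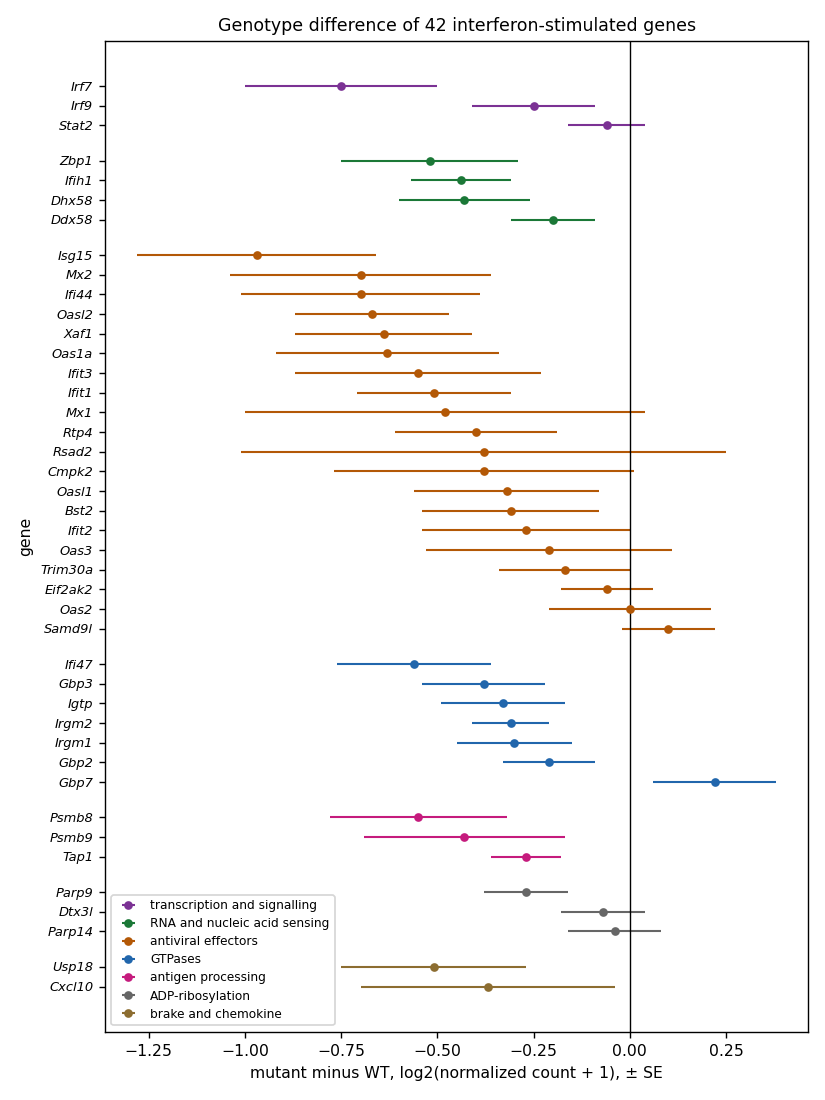
Mutant minus WT difference of each of the 42 members, on the log2(normalized count + 1) scale with its standard error from limma (5 mutants and 5 WT mice), grouped and coloured by role. All but Oas2, Samd9l and Gbp7 lie below 0, and the largest difference is that of Isg15.

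Without female WT 3 and male WT 1, the median member difference was -0.20 and 38 of 42 estimates stayed below 0, beside 52% of all tested genes. Only 3 members (Irgm2, Ifih1 and Isg15) then had an unadjusted p under 0.05, against 2.23% of all tested genes lower. Every mutant lay below every remaining WT mouse for 4 members, Tap1, Oasl2, Ifih1 and Ddx58, against 1.09% of all tested genes. The lowest adjusted p among members in that fit was 0.819. Leaving out female WT 3 alone gave a median of -0.26, and leaving out male WT 1 alone gave -0.32. The median thus moved from -0.37 to -0.20 with both WT libraries removed. Leaving out female mutant 1 alone moved it the other way, to -0.44, with 40 of 42 estimates below 0. The median stayed below 0 in each of these fits.

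Male WT 1 followed exon length among the members, and female WT 3 did not. The 21 members with 756 to 2639 exon bases had a median difference of -0.51, with all 21 below 0, and the 21 with 2688 to 7251 bases had a median of -0.25, with 18 below 0. Male WT 1 deviated from the gene means by 0.66 on average over the shorter members and by -0.21 over the longer ones, whereas female WT 3 deviated by 0.53 and 0.54. Without both libraries the medians were -0.28 for the shorter and -0.16 for the longer members.

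**Figure D2:**
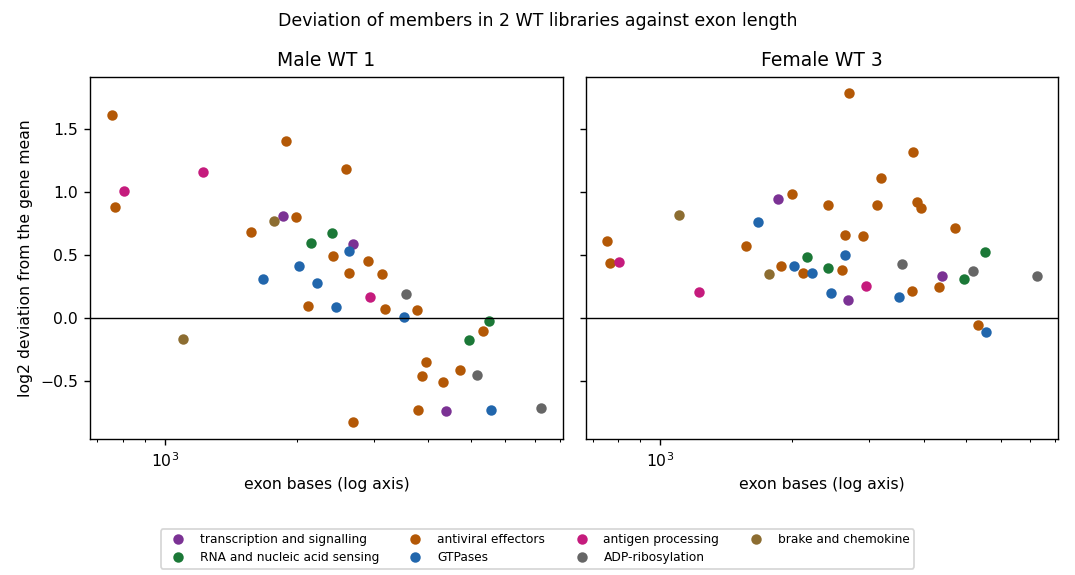
Deviation of each member from its own mean over 10 libraries (log2) against its exon bases on a log axis, for male WT 1 (left) and female WT 3 (right), coloured by role. In male WT 1 the shorter members lie mostly above 0 and the longest below it, while in female WT 3 nearly all members lie above 0 at every length.

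Per library, the mean deviation of the 42 members from their gene means ran from -0.41 in male mutant 1 to 0.54 in female WT 3 on the log2 scale. The mutants stood at 0.22, -0.20, -0.33, -0.41 and -0.18, and the WT libraries at 0.08, 0.09, 0.54, 0.23 and -0.03. Here and in every list of values that follows, the order is female 1, 2 and 3, then labelled male 1 and 2. The genotypes overlapped because female mutant 1 stood above 3 of the 5 WT libraries. That library held the highest value of 6 members, and male mutant 1 and female mutant 3 held the lowest value of 16 and 11.

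**Figure D3:**
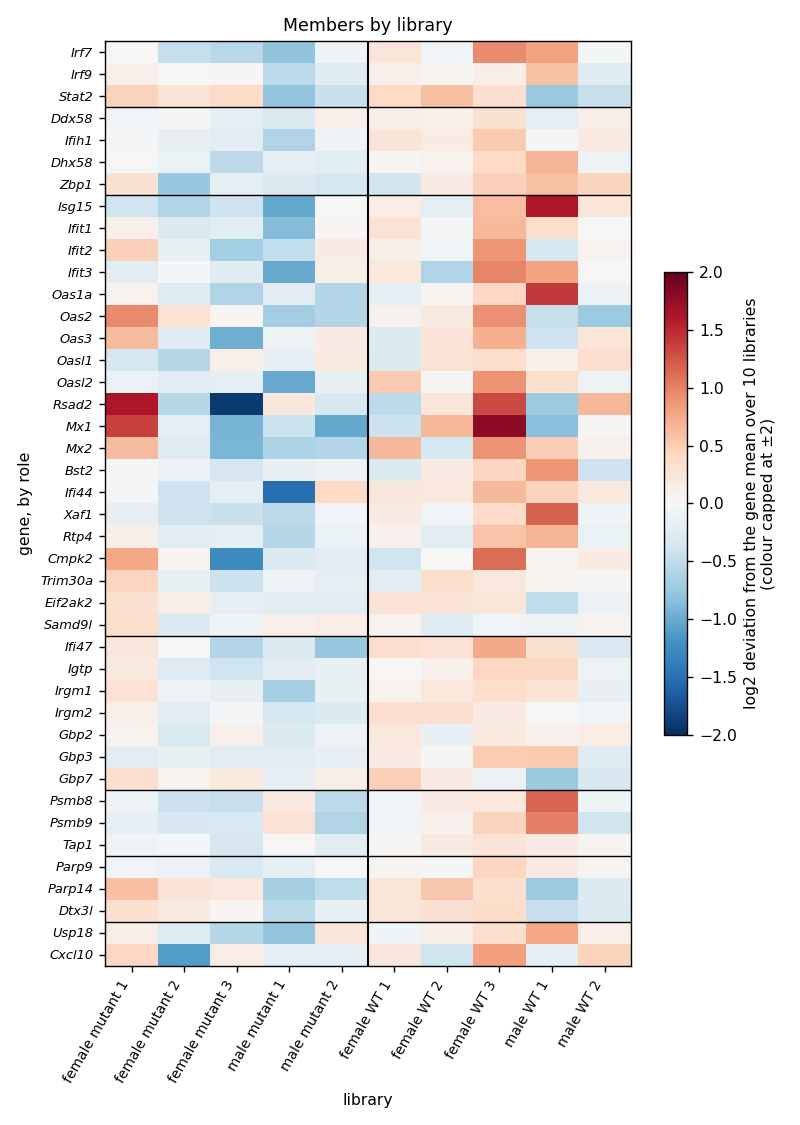
Deviation of each member (rows, by role) from its mean over the 10 libraries (columns, mutants left and WT right), on a log2 scale with colour capped at 2. Female WT 3 is above the mean for nearly all members, male WT 1 for the shorter ones, and female mutant 1 stands out among the mutants for Rsad2, Mx1 and Oas2.

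The transcription and signalling class had a median difference of -0.25, with all 3 estimates below 0. Irf7 lies at chr7:141263183-141266424 (mm10). It stood at 327, 236, 220, 185 and 304 normalized counts in mutants and at 381, 311, 623, 566 and 314 in WT mice. 4 mutants, all but female mutant 1, lay below the lowest WT mouse, and the difference was -0.75 ± 0.25 (SE; limma adjusted p = 0.683). Its size was -0.41 without female WT 3 and male WT 1. Irf9, the DNA-binding subunit of the STAT complex, had values of 1075, 1008, 1019, 700 and 852 in mutants and 1073, 1032, 1105, 1511 and 851 in WT mice. These groups overlapped, with a difference of -0.25 ± 0.16 that was -0.05 in females and -0.55 in labelled males. Stat2, the complex's transactivating subunit, stood at 1442, 1249, 1367, 603 and 771 in mutants and at 1388, 1589, 1318, 628 and 759 in WT mice. The genotypes overlapped for Stat2 (-0.06 ± 0.10), and its values instead separated the labelled sexes. The class median was -0.10 without male WT 1 and -0.16 without male mutant 1.

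All 4 sensors had estimates below 0, with a median of -0.43. Ifih1 encodes MDA5, a cytosolic sensor of long double-stranded RNA, and lies at chr2:62595793-62646255. Its values were 382, 348, 338, 258 and 372 normalized counts in mutants and 471, 438, 564, 385 and 442 in WT mice. Every mutant was below every WT mouse, by a margin of only 3 counts between female mutant 1 and male WT 1. The difference was -0.44 ± 0.13, a mutant to WT ratio of 0.738 (adjusted p = 0.594), and -0.41 without the 2 doubted WT libraries. Dhx58, which encodes the regulatory helicase LGP2, stood at 307, 281, 213, 272 and 261 in mutants and at 312, 324, 404, 490 and 286 in WT mice. 4 mutants were below the lowest WT value, and the difference of -0.43 ± 0.17 was -0.21 without those libraries. Zbp1, a sensor of Z-form nucleic acid, had 248, 119, 175, 164 and 158 counts in mutants against 154, 226, 281, 304 and 273 in WT mice (-0.52 ± 0.23). Ddx58, which encodes the sensor RIG-I, had the highest level of the class per kb of exon, at 949, 960, 858, 803 and 1052 in mutants and 1072, 1054, 1222, 873 and 1080 in WT mice. The Zbp1 and Ddx58 groups overlapped, and the Ddx58 difference was -0.20 ± 0.11.

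**Figure D4:**
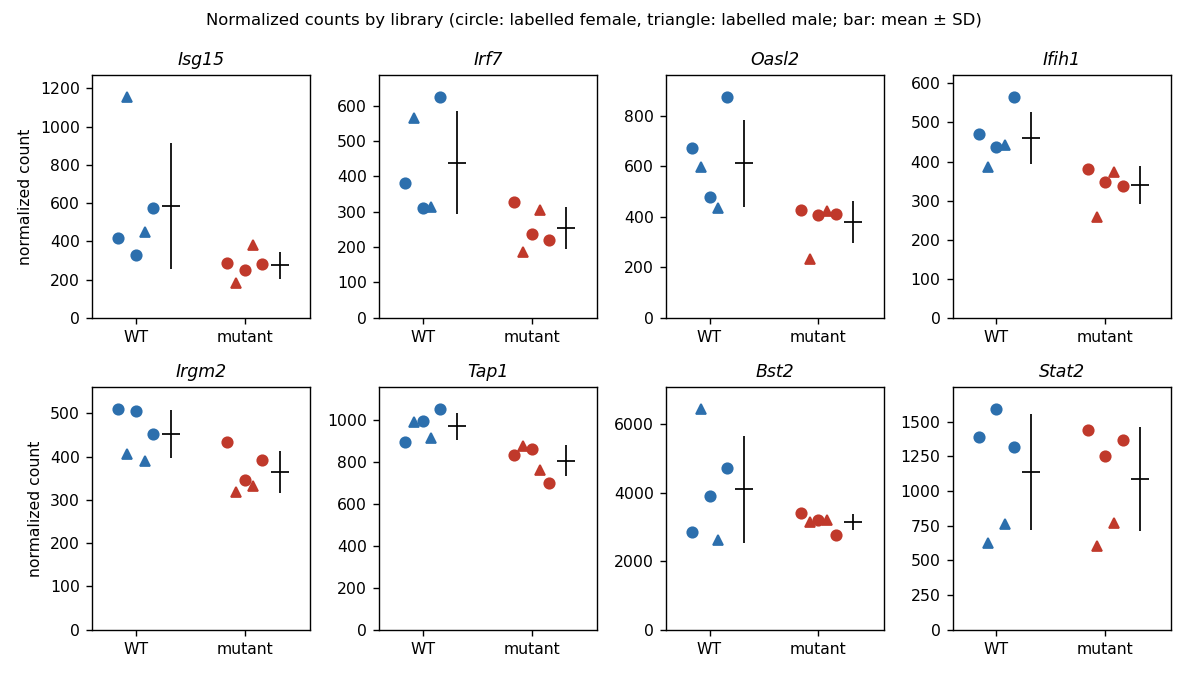
Normalized counts of 8 members in each library, WT in blue and mutants in red, circles for labelled females and triangles for labelled males, with the mean and SD of each genotype (n = 5) beside the points. Ifih1, Oasl2 and Tap1 separate the genotypes in every library, the Isg15 and Bst2 means of WT mice carry 1 high male library, and Stat2 follows labelled sex.

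The antiviral effectors had a median difference of -0.39, with 18 of 20 estimates below 0 and 5 lower at an unadjusted p under 0.05. Among all tested genes, 51.8% were below 0 and 2.62% lower, the shares to set beside every class and list. Without female WT 3 their median was -0.23. Isg15 (chr4:156199424-156200818), whose promoter held the 3 overlapping cores, stood at 285, 249, 282, 184 and 379 normalized counts in mutants and at 418, 329, 575, 1152 and 447 in WT mice. 4 mutants lay below the lowest WT mouse, and the library labelled male mutant 2 lay above it. The ratio was 0.510 (-0.97 ± 0.31, adjusted p = 0.659), and the difference was -0.56 without female WT 3 and male WT 1. Oasl2, an ISG15-like member of the oligoadenylate synthetase family at chr5:114896934-114912245, had 427, 407, 412, 234 and 422 counts in mutants and 673, 477, 873, 598 and 437 in WT mice. No mutant reached a WT value, and 4 of the 5 mutants lay within 407 to 427. The ratio was 0.627 (-0.67 ± 0.20, adjusted p = 0.601), and the difference was -0.46 without those libraries. Xaf1, an interferon-induced gene linked to cell death, had 273, 230, 226, 213 and 297 counts in mutants and 344, 295, 401, 700 and 294 in WT mice (-0.64 ± 0.23). 4 mutants were below the lowest WT mouse, and the difference was -0.33 without the 2 libraries.

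Bst2 encodes tetherin, which holds budding virus particles at the cell surface, and it had by far the highest level of any member at 4714.2 normalized counts per kb of exon. It stood at 3407, 3206, 2778, 3141 and 3206 in mutants and at 2847, 3899, 4722, 6438 and 2608 in WT mice. The mutants lay within the WT range, and the difference of -0.31 ± 0.23 became 0.04 without female WT 3 and male WT 1. Among the remaining effectors, differences between -0.70 and -0.51 were those of Mx2, Ifi44, Oas1a, Ifit3 and Ifit1. Rtp4, Oasl1, Ifit2, Oas3, Trim30a and Eif2ak2 followed with differences from -0.40 to -0.06. Rsad2, Mx1 and Cmpk2 had standard errors of 0.63, 0.52 and 0.39, as large as or larger than their differences of -0.38, -0.48 and -0.38. For Rsad2, which encodes the antiviral enzyme viperin, counts were 333, 73, 28, 127 and 87 in mutants and 75, 128, 272, 65 and 172 in WT mice. Female mutant 1 and female WT 3 were the high libraries for Rsad2, so the spread lay within each genotype. Oas2 (0.00 ± 0.21) and Samd9l (0.10 ± 0.12) were the effectors with no lower estimate. Ifit3 and Oas1a have close copies, Ifit3b and Oas1g, and reads shared between such copies leave their values uncertain.

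Among the GTPases, 6 of 7 estimates were below 0, with a median of -0.31 and 3 lower at an unadjusted p under 0.05. Irgm2 is an immunity-related GTPase at chr11:58214977-58222783. It had 434, 346, 393, 317 and 333 normalized counts in mutants and 509, 506, 452, 406 and 389 in WT mice. The groups overlapped through female mutant 1 and female mutant 3, with a difference of -0.31 ± 0.10 (adjusted p = 0.633). The Irgm2 difference was -0.34 without female WT 3 and male WT 1. Ifi47, of the same family, stood at 281, 239, 159, 197 and 142 in mutants and at 307, 294, 408, 298 and 194 in WT mice (-0.56 ± 0.20). 4 WT mice were above every mutant, and male WT 2 was not. Ifi47 shares 90 exon bases with Olfr56, which had at most 13 counts. Gbp3, a guanylate-binding protein gene, had 162, 169, 161, 159 and 167 counts in mutants and 209, 190, 265, 270 and 157 in WT mice. The 5 mutants lay within 159 to 169, a tighter set than the WT mice, and male WT 2 lay under them (-0.38 ± 0.16, or -0.16 without the 2 libraries). Irgm1, a regulator of the family with the class's highest level per kb (355), had 948, 738, 702, 488 and 697 counts in mutants and 811, 901, 994, 941 and 689 in WT mice (-0.30 ± 0.15). Those groups overlapped widely. Igtp (-0.33) and Gbp2 (-0.21) had lower estimates, and Gbp7 had a higher one (0.22 ± 0.16). The GTPase median was -0.16 without female WT 3 and male WT 1.

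The 3 antigen processing genes lie side by side on chromosome 17 within the MHC, from Psmb9 at 34182099 to the end of Psmb8 at 34201454 (mm10). Their median difference was -0.43, and all 3 estimates were below 0. It was -0.26 without male WT 1 and -0.65 without male WT 2. Tap1, a subunit of the transporter that carries peptides into the endoplasmic reticulum, had 835, 861, 698, 874 and 761 normalized counts in mutants and 896, 997, 1051, 989 and 913 in WT mice. All 5 WT mice were above all 5 mutants, and the ratio was 0.830 (-0.27 ± 0.09, adjusted p = 0.710). The Tap1 difference was -0.22 without female WT 3 and male WT 1. Psmb8, an immunoproteasome subunit, stood at 1148, 913, 893, 1385 and 855 in mutants and at 1184, 1379, 1426, 2757 and 1158 in WT mice. 4 mutants were below the lowest WT mouse, and the difference of -0.55 ± 0.23 was -0.28 without the 2 libraries. Psmb9, a second immunoproteasome subunit, had 298, 269, 270, 410 and 221 counts in mutants and 323, 354, 456, 674 and 253 in WT mice. Its groups overlapped, and its difference of -0.43 ± 0.26 was -0.09 without those libraries.

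The medians of the 3 main classes were -0.39 for antiviral effectors, -0.31 for GTPases and -0.43 for antigen processing, and the difference between classes was not tested. Without female WT 3 and male WT 1 they were -0.21, -0.16 and -0.22. Of the 33 members with a promoter, the 16 with the response element core upstream had a median difference of -0.32 and the 17 without it -0.38. In both sets, 1 member had an estimate of 0 or above.

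The ADP-ribosylation genes had a median of -0.07, which was -0.02 without male mutant 1 and -0.14 without the library labelled male mutant 2. Parp9, a partner of the ubiquitin ligase DTX3L, had 731, 699, 613, 658 and 751 normalized counts in mutants and 789, 734, 1020, 862 and 783 in WT mice. 4 mutants were below the lowest WT value (-0.27 ± 0.11). Dtx3l, with which Parp9 shares 334 exon bases, had 737, 666, 604, 404 and 530 counts in mutants and 696, 726, 763, 430 and 485 in WT mice (-0.07 ± 0.11). The sources used here do not say whether reads were counted by strand, so reads of that overlap may be shared. Parp14, an ADP-ribosyltransferase, had 1754, 1376, 1332, 728 and 806 counts in mutants and 1362, 1668, 1450, 700 and 948 in WT mice (-0.04 ± 0.12). Dtx3l and Parp14 overlapped widely between genotypes and were lower in labelled males. Usp18 had 166, 128, 103, 88 and 180 counts in mutants and 144, 168, 195, 261 and 165 in WT mice (-0.51 ± 0.24), and 22.9% of its exon bases overlap another gene in the table. Cxcl10 was low throughout, at 89, 30, 74, 58 and 59 in mutants and 78, 50, 118, 59 and 91 in WT mice (-0.37 ± 0.33). Both genes overlapped between the genotypes.

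Per kb of exon, the order of mean levels over the 10 libraries began with Bst2 (4714.2), Psmb8 (1071), Isg15 (569), Psmb9 (438), Irf9 (380), Irgm1 (355) and Tap1 (301). It ended with Mx2 (22.6), Oasl1 and, lowest, Mx1 (12.9). Bst2 in its lowest library (2608 counts over 769 exon bases) was still above Psmb8 in its highest per kb (2757 over 1223), while neighbours such as Irf9 and Irgm1, or Oasl1 and Mx1, did not differ beyond their spread over libraries. The classical effectors Mx1, Rsad2, Oas3 and Cmpk2 were thus among the lowest members in these femurs. All members together made up 0.0643% to 0.101% of the normalized counts outside Rn45s.

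Some members separated the labelled sexes. In all, 5 members were lower in libraries labelled male at an adjusted p under 0.05 (limma, genotype as covariate) and 0 were higher, beside 10.6% of tested genes lower and 9.46% higher. These 5 are a share of the 42 members close to that 10.6%, so their number does not set the members apart. Stat2 was lower by -1.02 ± 0.11 (log2, male minus female, adjusted p = 0.00164), with 603 to 771 counts in labelled males and 1249 to 1589 in females. Parp14 (-0.91 ± 0.12) had 700 to 948 in labelled males and 1332 to 1754 in females, and Dtx3l (-0.60 ± 0.11) had 404 to 530 and 604 to 763. None of these 3 overlapped between the labelled sexes. Oas2, an oligoadenylate synthetase, had 380, 243, 203, 122 and 132 counts in mutants and 211, 224, 375, 143 and 119 in WT mice (-1.03 ± 0.22, adjusted p = 0.0163). Its labelled sexes did not overlap either. Eif2ak2, which encodes the RNA-activated kinase PKR, had 1109, 987, 800, 772 and 775 counts in mutants and 1083, 1066, 1064, 630 and 822 in WT mice (-0.44 ± 0.12, adjusted p = 0.0337). Its labelled sexes overlapped, since female mutant 3 lay below male WT 2. Without the library labelled male mutant 2, these 5 and Gbp7 were lower and 0 were higher, beside 12.2% of tested genes lower and 11.1% higher. All 6 have 3864 to 7251 exon bases and so fall among the longer members. The median sex difference was -0.22 over the longer members and -0.03 over the shorter. The slope of deviation on exon length was -1.62 to 0.14 in labelled males and 0.17 to 0.45 in females. The part of exon length in the sex differences was not tested. The library names of labelled females and males follow different patterns, so sex and any handling difference cannot be told apart by label. The library labelled male mutant 2 carried Xist (7972), with Ddx3y at 4. In it Stat2 (771), Parp14 (806), Dtx3l (530) and Oas2 (132) lay below every labelled female. The cause of these values was not tested.

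Within labelled females the median member difference was -0.36, with 39 of 42 below 0, and within labelled males it was -0.35, with 37 below 0. Without the library labelled male mutant 2 the male median was -0.37. No member passed the adjusted threshold in either sex. Over all tested genes, 2 (0.0139%) passed in females and 0 (0%) in males. The difference of the genotype effect between the labelled sexes had a median of -0.02 over the members, with 0 members at an unadjusted p under 0.05 and a lowest adjusted p of 0.801. No tested gene (0%) passed that comparison, in which 563 genes had an unadjusted p under 0.05. A missed threshold does not show that the sexes responded alike.

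The rest of the interferon pathway was read from lists of its parts. Of 21 interferon ligand genes, 16 were listed at 0 in all 10 libraries, Ifnb1 among them, and the highest single value was 4. A value of 0 allows up to 3 reads, or 2.54 to 6.58 normalized counts by library. The ligand sums were 0 to 3 in mutants and 0 to 6 in WT mice, so no difference was detectable at this depth.

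Receptors and kinases had a median difference of -0.05, with 5 of 9 below 0 and none past either threshold, and -0.10 without female WT 3. The type I receptor chains Ifnar1 (-0.05 ± 0.08) and Ifnar2 (-0.20 ± 0.14) and the type II chains Ifngr1 (-0.10 ± 0.12) and Ifngr2 (-0.12 ± 0.13) had estimates from -0.20 to -0.05. Il10rb, a receptor chain for type III interferon and interleukin-10, stood at 3867, 3214, 2845, 3479 and 2923 normalized counts in mutants and at 3179, 4003, 3474, 6781 and 3786 in WT mice. Its groups overlapped, with male WT 1 the high library (-0.33 ± 0.18). Jak2 had the highest estimate of this list (0.27 ± 0.15). Among 16 genes of interferon induction the median was -0.08, with 11 below 0, and -0.03 without male WT 1. Irf5, a factor downstream of Toll-like receptors (-0.57 ± 0.20), was the 1 with an unadjusted p under 0.05, beside Tlr7 (-0.25 ± 0.13) and Irf3 (-0.16 ± 0.12).

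Of the other interferon regulatory factors, 4 of 5 tested were below 0, with a median of -0.07. Irf8, a myeloid factor, had 1693, 1608, 1233, 1113 and 1101 normalized counts in mutants and 1569, 2193, 2110, 2708 and 1546 in WT mice. The groups overlapped in 2 female mutants (-0.58 ± 0.19). Irf1, which drives antigen processing genes, had 1010, 849, 1100, 1313 and 774 counts in mutants against 1354, 1195, 996, 1337 and 1493 in WT mice (-0.35 ± 0.16).

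Restraint of interferon signalling had a median of -0.11, with 9 of 10 below 0, and -0.06 without female WT 3 and male WT 1. Its Samhd1, a dNTP hydrolase that limits viral replication, had 2189, 2190, 2045, 2203 and 2220 counts in mutants and 3069, 2763, 3384, 2815 and 2401 in WT mice. All 5 mutants lay within 2045 to 2220, under every WT mouse. The Samhd1 difference was -0.40 ± 0.10 (adjusted p = 0.468), and it was -0.33 without female WT 3 and male WT 1. Rnaseh2a, in the same list, had an estimate of -0.28 ± 0.18 that was -0.07 without them.

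Of 33 other interferon-induced genes tested, 24 were below 0 with a median of -0.24, and 6 were lower at an unadjusted p under 0.05. Their median was -0.15 without male WT 1, and also without it and female WT 3. Sp100, a nuclear body protein gene, had 488, 486, 348, 436 and 360 counts in mutants and 532, 570, 605, 721 and 426 in WT mice (-0.42 ± 0.16), and the low-level Phf11b had an estimate of -1.14 ± 0.46. The 10 other GTPases tested had a median of 0.00, with 5 below 0 and 5 above. Tgtp2 (-0.82 ± 0.35), which has a close copy in Tgtp1, and Gvin1 (-0.82 ± 0.46) were low in all libraries. No gene of any of these lists passed the adjusted threshold.

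MHC class I and class II lists had median differences of opposite sign. The other class I pathway genes had a median of -0.25, with 8 of 10 below 0 and 2, Tap2 and Psmb10, lower at an unadjusted p under 0.05. It was -0.13 without male WT 1, with all 10 below 0, and -0.17 without both doubted WT libraries. Tap2, the partner of TAP1, had 1221, 1182, 1138, 1350 and 1154 normalized counts in mutants and 1455, 1509, 1399, 1265 and 1376 in WT mice. Male mutant 1 and male WT 1 crossed, and the difference was -0.21 ± 0.08. Psmb10, the third immunoproteasome subunit, had 758, 703, 698, 942 and 716 counts in mutants and 785, 949, 967, 1910 and 896 in WT mice (-0.46 ± 0.19). In Psmb10, 4 mutants were below the lowest WT mouse, male WT 1 was the high library, and the difference was -0.26 without it.

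The class II genes had a median of 1.00, with 4 of 6 above 0. At an unadjusted p under 0.05, 3 were higher, as were 530 of the 14362 tested genes. The median was 1.45 within females and 0.16 within labelled males, and the difference between the sexes passed no adjusted threshold (lowest adjusted p = 0.801, limma). H2-Aa, a class II chain, had 739, 240, 564, 845 and 121 counts in mutants and 36, 154, 94, 191 and 190 in WT mice. Cd74, the invariant chain, had 1660, 671, 1469, 1507 and 344 counts in mutants and 143, 521, 283, 408 and 540 in WT mice. For both, 4 mutants were above every WT mouse, and the library labelled male mutant 2 was within the WT range. The differences were 1.80 ± 0.63 for H2-Aa and 1.50 ± 0.52 for Cd74 (adjusted p = 0.710 each). They were 1.95 and 1.50 without female WT 3 and male WT 1. Markers of B cells, which carry class II, had at most 15 counts in any library. The part of any cell type in the class II differences was not tested.

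**Figure D5:**
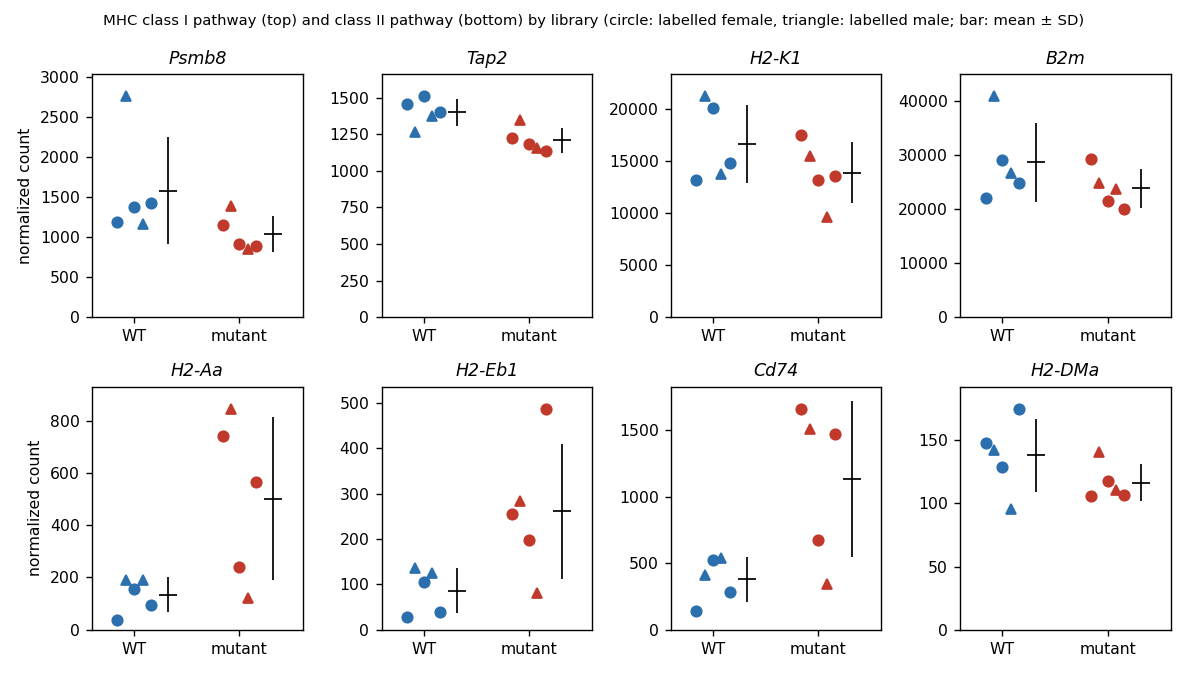
Normalized counts of 4 MHC class I pathway genes (top row) and 4 class II pathway genes (bottom row) in each library, WT in blue and mutants in red, circles for labelled females and triangles for labelled males, with mean and SD (n = 5). Mutant means are lower for the class I genes and higher for H2-Aa, H2-Eb1 and Cd74, and H2-DMa does not share that direction.

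Markers of cell types were read beside the members. Macrophage markers had 10 of 12 estimates below 0 and a median of -0.29, with summed levels of 240760 to 440032 in mutants against 246073 to 830553 in controls. The top value was that of male WT 1, and the median was -0.09 without that library and -0.08 without it and female WT 3. In male WT 1, Lyz2 (1057 exon bases) stood at 607202, and Mrc1 (5318 exon bases) had its lowest value, 12442. Mrc1 alone among the macrophage markers had an unadjusted p under 0.05, and was higher in mutants (0.36 ± 0.14, limma adjusted p = 0.739). The part of macrophages in the member differences was not tested. Endothelial markers had 15 of 16 estimates below 0 and a median of -1.01, with sums of 3941 to 31758 in mutants and 17765 to 36378 in the controls. Without female mutant 1, the lowest library, the endothelial median was -0.35. Labelled males did not share the endothelial direction, with a median of 0.13 and 7 of 16 below 0, against -1.78 and 15 of 16 in females. Their mutants include the library labelled male mutant 2, which carried Xist (7972). Over both sexes the endothelial median was -1.45 with that library left out, and 16 of 16 estimates were below 0. The part of endothelial cells in the member differences was not tested.

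Osteoclast markers lay the other way, with 10 of 11 estimates above 0, a median of 1.23 and sums of 65202 to 345048 in mutants and 37418 to 105025 in controls. The top sum was that of male mutant 1, and the osteoclast median was 0.88 without that library. It was 0.68 without female WT 3 and male WT 1. In females the osteoclast median was 1.06, with 4 of 11 estimates below 0, and in labelled males it was 1.48, with 1 below 0. Skeletal muscle markers had a median of 1.27 and sums of 619 to 7112 against 461 to 2335, but the median was 2.22 in females and -0.24 in labelled males. Osteoblast markers were abundant in every library of this bone series, with sums of 559652 to 769070 against 375424 to 1161633. Their median of 0.16 had no stable sign, since it was -0.35 in females, 1.08 in labelled males, -0.23 without male WT 1 and -0.05 without both doubted WT libraries. The part of these cells in the member differences was not tested.

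Most markers of blood lineages other than macrophages were near the floor. Among plasmacytoid dendritic markers, the cells known for high interferon output, Siglech was at 0 in every library and Ccr9 at most 2, while Cox6a2, which muscle also expresses, made up most of the list's sums of 129 to 347 in mutants and 210 to 382 in controls. The neutrophil list summed to 38 to 275 in mutants and 70 to 151 in controls, the B cell list to 10 to 19 and 10 to 28, and the erythroid list to 9 to 22 and 26 to 80. The erythroid sums did not overlap between genotypes. Hbb-bs, the 1 erythroid marker tested, had 3 to 12 counts in mutants and 11 to 50 in controls (-2.18 ± 0.50, limma adjusted p = 0.447). Hba-a1, too low to be tested, had 0 to 2 and 5 to 20. The part of erythroid cells in the member differences was not tested. T and NK markers summed to 117 to 672 in mutants and 159 to 498 in WT mice, nearly all of it Cd4, with Cd8a, Ncr1 and Nkg7 at no more than 2.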

How the data were processed

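Per the labels' protocols, 10 µg of TRIzol-extracted RNA from pulverized bone went through rRNA depletion and Illumina sequencing. STAR 2.5.2b, DESeq2 1.14.1 and mm10 are named in the submitters' processing notes. The deposited values are a score, counts divided by DESeq2 size factors by the authors and then rounded, as the file headers and values show. Counts could not be recovered, so no count test was run. The 14362 genes that reached 10 normalized counts in at least 5 of 10 libraries were tested on log2(normalized count + 1), which understates changes of low genes, with limma 3.58.1 in R 4.3.3 (mean-variance trend, robust moderation, labelled sex as covariate, Benjamini-Hochberg adjustment over all tested genes, threshold 0.05). Effects within and between labelled sexes came from 4 group means. The fit was tested on simulated data. Reads per library were estimated from skipped and doubled whole numbers, and a 0 was given a limit of 3 reads, for counting error only. At most 1.12% of tested genes had equal values in 2 replicates. Levels per kb used the exon bases of the deposited table.

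Members, lists and tests were chosen with earlier results of these data known. Values in every library are given for the 3 members of each class with the smallest unadjusted p, the member of each class with the highest level per kb and members past a threshold. In each pathway list, the 2 genes with the smallest p, the 4 receptor chains and Irf3 are named. Rsad2, H2-Eb1 and H2-DMa, H2-K1 and B2m in a plot, and further genes named with an estimate only were chosen after their values were seen. Promoters came from RefSeq, build GRCm38.p6. One item is not reported here.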

Additional observations from a re-analysis of the deposited data

Results flagged for a closer look

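Each of the 42 members was checked for a library far from the other 4 of its genotype, 84 sets in all, and 6 sets had a gap above 0.71 of their range. About 1 set in 20 passes by chance. In male WT 1, Oas1a stood at 798 normalized counts (other WT libraries 266 to 399), Xaf1 at 700 (294 to 401) and Psmb8 at 2757 (1158 to 1426). All 3 genes have fewer than 2639 exon bases. In female WT 3, Cmpk2 stood at 195 (68 to 101). Among mutants, Oasl2 was low in male mutant 1 at 234 (407 to 427), and Mx1 was high in female mutant 1 at 72 (13 to 24).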

How the results depend on the processing

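Across 10 libraries, 0 genes and 0 members passed for genotype, except with array weights (11 genes, 0 members). The replicate block gave 0 genes and a member median of -0.37. Deviations of same-numbered libraries correlated at -0.319, -0.292 and 0.001 in females and at 0.221 in labelled males, where the 2 pairs have 1 value by construction. Not every pair is above 0.1, so the numbers were not taken to pair mice. The member median ran from -0.44 to -0.26 with each library left out and was -0.20 without female WT 3, male WT 1 and male mutant 2. The antigen processing median was -0.19 without those 3. Within females, the 2 genes passing became 1 with a pseudocount of 5, a mean of 50 or more, or quantile normalization, 7 with array weights, 0 with the replicate block, without the 2 or 3 doubted libraries or in a single-sex fit, and 0 to 1 with each library left out. Within labelled males the count ran from 0 to 4363 and for the sex difference from 0 to 2674 with each library left out. Both maxima came without male WT 2, with male WT 1 as the lone WT male, assumed to vary like the other groups, and then 9 members passed within males and 2 (Irf9 and Oas1a) for the sex difference. Each member count is a smaller share of the 42 members than the matching maximum is of the 14362 tested genes. A lone WT male has no spread of its own, so that fit calls no member changed. Signs turned for Bst2 (0.04 and 0.01 without 2 and 3 libraries), Psmb9 (0.01 without 3) and Ifngr2 (0.03 and 0.02). They also turned for Ifnar1 (0.00, quantile normalization), Ifnar2 (0.00 without 3) and Parp14. The Parp14 estimate was -0.14 with array weights and -0.11 to 0.03 with each library left out. The core was in 3.44% of promoters over the whole 300-base window. The causes were not tested. The sex comparison without male mutant 2 was chosen after seeing the data.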
